A study of Rattus norvegicus with 6 samples.

Results

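The genes described here are those through which blood vessel endothelium sets the tone of the vessel wall: Nos3, Edn1, Ednrb, Ece1, Ptgs1, Ptgs2, Ptgis and Ace, 8 genes in all. They were found by their symbol in the annotation that pairs the array's probesets with genes, among 15037 genes with a name. Of the 8, 6 had a probeset, 1 each, and all 6 passed the filter on dim genes that left 11577 genes for testing. Ednrb and Ace matched no probeset by symbol or Entrez identifier and are not analysed here. The RNA came from blood vessel endothelial cells of abdominal skin of Sprague-Dawley rats, 3 with an Il33 knockout (numbered 27, 28 and 52) and 3 wildtype (34, 45 and 37). Each group held 2 females and 1 male, the males being knockout 52 and wildtype 37. The skin was digested with collagenase I and DNase I, cells positive for CD45 (leukocytes) or for Lyve-1 (lymphatic endothelium) were removed by magnetic sorting, and CD31-positive cells were kept. The labels name no treatment of the animals and no cell-specific driver of the knockout; the sources used here do not give the making of the allele or the ages. Every array is from a different animal.

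Endothelial nitric oxide synthase, the product of Nos3, makes nitric oxide, which relaxes the underlying smooth muscle through soluble guanylate cyclase and cyclic GMP. Endothelin-1, encoded by Edn1, is cut from its precursor by the membrane protease of Ece1 and is among the most potent constrictors known, while its receptor on endothelium, Ednrb, couples back to nitric oxide and clears the peptide. The cyclooxygenases Ptgs1 and Ptgs2 turn arachidonic acid into prostaglandin H2, which the synthase encoded by Ptgis converts to prostacyclin, a dilator, and which other enzymes turn into constrictor thromboxane. Ace, the angiotensin-converting enzyme of the endothelial surface, makes the constrictor angiotensin II and breaks down the dilator bradykinin.

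Values are read as log2 expression per probeset, so a difference of 1 would be a doubling. That scale is inferred, and the highest values are unusually high for it. Array medians were 4.63 to 4.77, the highest values 19.70 to 19.93, and the highest of the 23 background probesets of an array 5.36 to 5.87. Throughout, knockout values are listed for animals 27, 28 and 52 and wildtype values for animals 34, 45 and 37, the male last. Il33 was 8.37, 8.07 and 9.82 in the knockout against 13.86, 16.32 and 16.60 in the wildtype (limma adjusted p = 0.0438), as the labels have it. It was the only gene called between genotypes. The call was lost, with adjusted p = 0.668, 0.277, 0.0672, 0.688 and 0.0793, without knockout 27, 28 or 52 or wildtype 45 or 37. All 9 measured of 10 blood endothelial markers lay above the background probesets on every array, with a list median of 14.99 to 15.90. Other skin cells also left signal. The medians over 4 measured of 9 keratinocyte markers were 9.22 to 16.20, highest in wildtype 34 and knockout 28, and those of 8 pericyte and smooth muscle markers 9.86 to 11.97. None of 7 mast cell or 4 measured melanocyte markers was above background on every array. The 8 spike-in controls averaged 10.12 to 10.42 on knockout 28, wildtype 34 and wildtype 45. On knockout 27 and both males they averaged 8.82 to 9.33, a technical split that crosses the genotypes. Among arrays of high spike-in signal, a genotype difference sets knockout 28 against wildtype 34 and 45, all female. Among those of low signal it sets knockout 27 and 52 against wildtype 37, a male. Each such difference therefore has only 1 array on one side.

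None of the 6 measured genes passed the test between knockout and wildtype. All 6 limma p-values adjusted over all genes were 0.999, against a call rate of 0.00864% among the genes tested, which is Il33 alone. At an unadjusted p under 0.05 the count was also 0 of 6, against 1.98% of all genes. The groups overlapped for each of the 6, while 6.25% of all genes tested had groups that did not overlap, 3.36% higher and 2.89% lower in the knockout. Of the 6 differences 3 were above 0 and 3 below, from -0.35 to 0.62, with a median of 0.08 beside 0.03 over all genes. The 95% intervals show what size of change these arrays could not tell from none. The narrowest ran from -1.13 to 0.43 (Ptgis, at background on every array) and the widest from -2.08 to 1.82 (Ptgs1). For Nos3, above background on every array, it ran from -0.32 to 1.52.

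**Figure D1:**
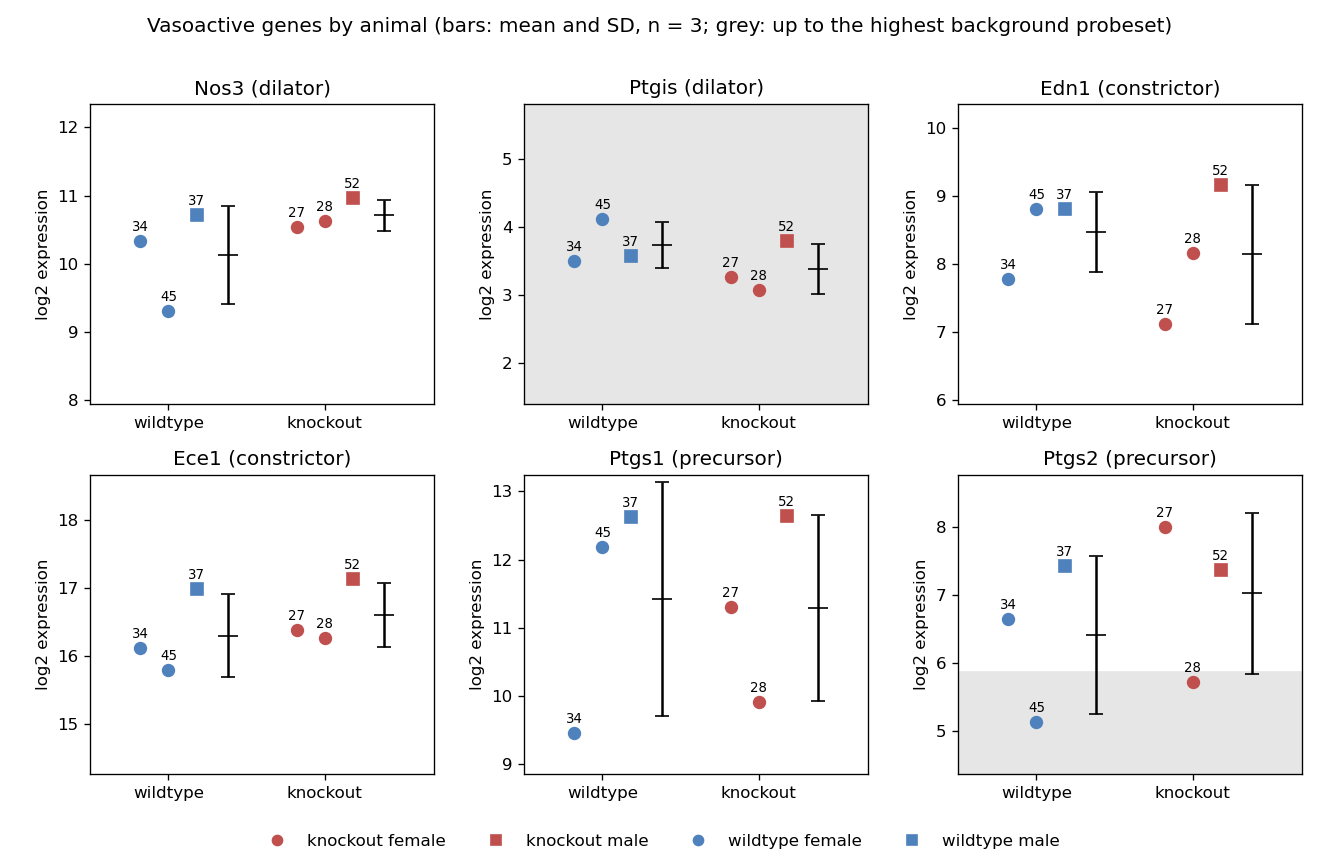
Log2 expression of the 6 measured vasoactive genes in each animal, labelled by number (circles females, squares males), with each group's mean and SD (n = 3). The grey band reaches up to 5.87, the highest background probeset of any array; wildtype and knockout points overlap in all panels, and the whole Ptgis panel lies in the band.

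Nos3 gave a clear signal in all 6 animals. It was 10.54, 10.63 and 10.97 in knockout animals against 10.33, 9.31 and 10.71 in wildtype animals. The knockout animals lay close together and wildtype 45 stood below the other 5 arrays. The wildtype male lay above the 2 knockout females, so the groups overlapped. Means were 10.71 ± 0.23 and 10.12 ± 0.72 (SD, n = 3 each), a difference of 0.60 (SE 0.41, 95% interval -0.32 to 1.52, limma unadjusted p = 0.177). Females alone gave 0.77 and males 0.26. Without wildtype 45 it was 0.19. Among arrays of high spike-in signal it was 0.81, and among those of low signal 0.04. The Nos3 gene lies on chromosome 4 (GRCr8, chr4:11686088-11706604).

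Edn1, the gene of the endothelin-1 precursor, differed in the opposite direction and varied more between animals. Its values were 7.13, 8.16 and 9.17 in knockout animals against 7.78, 8.81 and 8.81 in wildtype animals. The lowest and the highest value of the 6 were both in knockout animals. The means were 8.15 ± 1.02 and 8.47 ± 0.59 (SD, n = 3 each), a difference of -0.31 (SE 0.53, 95% interval -1.50 to 0.88, limma unadjusted p = 0.569). In the females it was -0.65 and in the males 0.36, and without knockout 27 it was 0.20. It was -0.82 without knockout 52, -0.66 without wildtype 34 and -0.14 without wildtype 45 or wildtype 37. High spike-in arrays gave -0.13 and low ones -0.66. Ece1, whose protease releases the active peptide, was highest in the males: 16.39, 16.27 and 17.13 in knockout animals against 16.12, 15.80 and 16.98 in wildtype animals. Its means of 16.60 ± 0.47 and 16.30 ± 0.61 differed by 0.30 (SE 0.41, 95% interval -0.63 to 1.22, limma unadjusted p = 0.489). Within each genotype the male was the highest animal, and the genotype difference was 0.05 when arrays were blocked by their spike-in signal (above or below the midpoint), being 0.31 among the high and -0.22 among the low arrays. It was 0.03 without knockout 52, 0.05 without wildtype 45, 0.46 without knockout 28 and 0.64 without wildtype 37, and 0.04 with the keratinocyte covariate. Edn1 lies on chromosome 17 (GRCr8, chr17:22660799-22666687) and Ece1 on chromosome 5 (chr5:155361031-155462723).

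The promoters of Nos3 and Edn1 are shown because these 2 genes make the dilator and the constrictor whose genotype differences had opposite signs. Neither difference passed, and that of Edn1 changed sign without knockout 27, so the contrast is not established. Each window runs from 250 bases before to 50 bases after the annotated RefSeq start in GRCr8, read on the gene's strand, which is the minus strand for both. Capitals mark matches on either strand to a TATA box searched as TATAAA, to a GC box searched as GGGCGG, to an AP-1-like element searched as TGACTAA, to a GATA site searched as GATAA, and to an E-box searched as CACGTG. No matches to different motifs overlap in the windows printed.
Nos3 chr4:11706532-11706831: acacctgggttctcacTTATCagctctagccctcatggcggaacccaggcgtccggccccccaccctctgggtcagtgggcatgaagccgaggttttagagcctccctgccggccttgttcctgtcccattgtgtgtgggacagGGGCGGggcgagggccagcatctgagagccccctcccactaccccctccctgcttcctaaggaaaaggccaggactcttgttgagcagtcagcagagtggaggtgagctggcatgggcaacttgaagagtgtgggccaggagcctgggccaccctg
Edn1 chr17:22666638-22666937: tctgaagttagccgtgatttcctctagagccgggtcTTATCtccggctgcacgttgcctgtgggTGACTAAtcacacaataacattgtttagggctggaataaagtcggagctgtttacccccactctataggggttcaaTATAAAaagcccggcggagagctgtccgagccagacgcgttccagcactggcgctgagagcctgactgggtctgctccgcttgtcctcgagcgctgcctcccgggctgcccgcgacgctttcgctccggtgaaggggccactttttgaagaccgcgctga
The Edn1 window held TATAAA once, TGACTAA once and GATAA once, the first base of each lying 110, 186 and 214 bases before the start. The Nos3 window held GGGCGG and GATAA once each, at 106 and 234 bases before the start, and no TATAAA. Of 33469 rat promoter windows of the same length, 14.2% held TATAAA, 33.1% GGGCGG, 2.34% TGACTAA, 26.5% GATAA and 6.42% CACGTG. A match describes the letters and is not evidence that a factor binds there.

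The 2 cyclooxygenases had the widest spread between animals among the 6 measured vasoactive genes. Ptgs1, the isoenzyme usually made constitutively, was 11.31, 9.91 and 12.64 in knockout animals against 9.45, 12.18 and 12.62 in wildtype animals. Each genotype held 1 low female and a high male, and the range over the 6 arrays was 3.19. Its SD over the arrays was at the 98.9th percentile of all genes tested. The means of 11.29 ± 1.37 and 11.42 ± 1.72 differed by -0.13 (SE 0.87, limma unadjusted p = 0.884). The 2 lowest values, in wildtype 34 and knockout 28, stood on the arrays with the highest keratinocyte medians, 16.20 and 13.03. With that median as a covariate the difference was -1.11 (limma unadjusted p = 0.0435, adjusted p = 0.999). It was 0.56 without knockout 28, 0.47 without wildtype 37 and 0.25 without wildtype 45, but -0.81 without knockout 52 and -1.11 without wildtype 34, so its direction is not settled. Arrays of high spike-in signal gave -0.90 and those of low signal -0.64. Signal of a gene in such sorted cells does not tell fewer cells of a type from less RNA per cell.

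Ptgs2, the inducible isoenzyme, lay nearer to background. Its values were 7.99, 5.71 and 7.36 in knockout animals against 6.64, 5.13 and 7.42 in wildtype animals, and on wildtype 45 it did not exceed all background probesets. The highest and the lowest of the 6 belonged to females, knockout 27 and wildtype 45. Means were 7.02 ± 1.18 and 6.40 ± 1.16 (SD, n = 3 each), a difference of 0.62 (SE 0.69, 95% interval -0.91 to 2.16, limma unadjusted p = 0.386). It was 0.97 in the females alone and -0.06 in the males, and -0.01 without wildtype 45. Dropping knockout 27 left 0.14, dropping knockout 28 raised it to 1.28 and dropping wildtype 37 to 1.13; the keratinocyte covariate gave 0.18. With the spike-in block it was 0.04, from -0.17 among the high and 0.26 among the low arrays. Arrays low in Ptgs1 were not always low in Ptgs2: wildtype 45 had the lowest Ptgs2 and a Ptgs1 of 12.18, close to the males. Ptgis, the prostacyclin synthase, was 3.27, 3.08 and 3.79 in knockout animals against 3.50, 4.12 and 3.57 in wildtype animals. It was above all background probesets on 0 of 6 arrays, so its difference of -0.35 is between values at background (-0.20 without knockout 28) and says nothing of prostacyclin synthesis. Ptgs1 and Ptgis lie apart on chromosome 3 (GRCr8, chr3:39981419-40002993 and chr3:176347589-176383251) and Ptgs2 on chromosome 13 (chr13:64714063-64722320).

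The promoters of the 2 cyclooxygenase genes are shown since these isoenzymes make the same product and took different values in the same animals. Windows, strand reading and capitals are as above, and both genes lie on the plus strand.
Ptgs1 chr3:39981169-39981468: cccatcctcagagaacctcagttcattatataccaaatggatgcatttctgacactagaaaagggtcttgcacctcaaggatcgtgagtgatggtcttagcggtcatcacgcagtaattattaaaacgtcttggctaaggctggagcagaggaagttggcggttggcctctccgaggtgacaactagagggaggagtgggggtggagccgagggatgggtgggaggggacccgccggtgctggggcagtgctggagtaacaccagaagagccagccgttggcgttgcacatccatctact
Ptgs2 chr13:64713813-64714112: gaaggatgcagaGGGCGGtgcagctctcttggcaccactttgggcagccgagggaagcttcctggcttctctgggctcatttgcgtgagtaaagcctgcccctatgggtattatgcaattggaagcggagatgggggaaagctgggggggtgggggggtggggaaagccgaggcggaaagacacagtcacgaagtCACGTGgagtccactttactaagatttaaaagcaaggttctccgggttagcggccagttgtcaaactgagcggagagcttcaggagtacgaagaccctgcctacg
The Ptgs2 window held CACGTG once, 55 bases before the start, and GGGCGG once, 238 bases before it. The Ptgs1 window held 0 matches to the 5 motifs searched, which says only that those letters are not in this window.

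**Figure D2:**
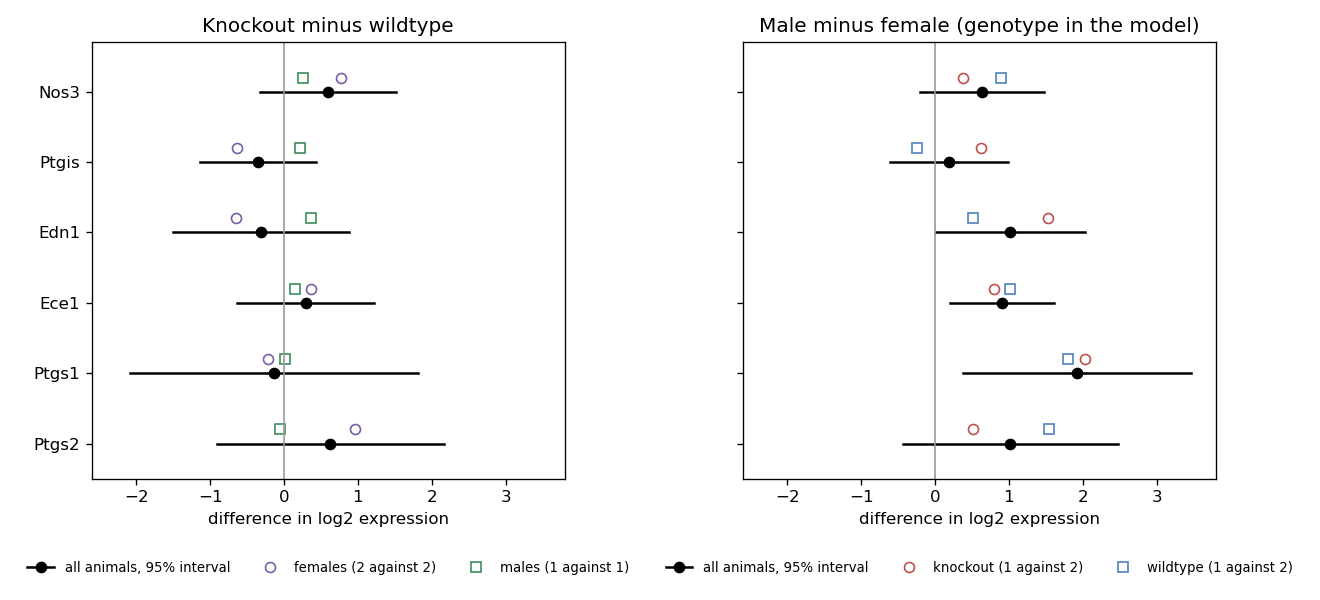
Differences in log2 expression of the 6 measured genes with 95% intervals from limma, between genotypes (left, with the females and the males apart) and between sexes with genotype in the model (right, with each genotype apart). Intervals on the left all cross 0; on the right those of Edn1, Ece1 and Ptgs1 lie above 0, before adjustment over all genes.

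Dilator and constrictor genes were compared within each array after centring every gene on its own mean over the 6 arrays, because signals of different probesets cannot be set against each other. With Ednrb and Ace not measured, the dilator side held Nos3 and Ptgis and the constrictor side Edn1 and Ece1. Ptgis was above all background probesets on 0 of 6 arrays, so Nos3 is the only dilator gene here with signal above background. The Ptgis difference of -0.35, between values at background, enters the dilator mean beside 0.60 for Nos3. The dilator mean deviation was -0.08, -0.13 and 0.39 in knockout animals against -0.07, -0.27 and 0.15 in wildtype animals. For the constrictor genes it was -0.62, -0.16 and 0.77 in knockout animals against -0.43, -0.07 and 0.52 in wildtype animals. Both sides were highest in the 2 males. The balance, dilator minus constrictor, was 0.07 ± 0.46 in the knockout and -0.07 ± 0.38 in the wildtype (SD, n = 3 each), a difference of 0.13 that is smaller than either SD. It was -0.10 without knockout 27 and -0.02 without wildtype 37. No test was made on it, since it is a score over chosen genes.

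**Figure D3:**
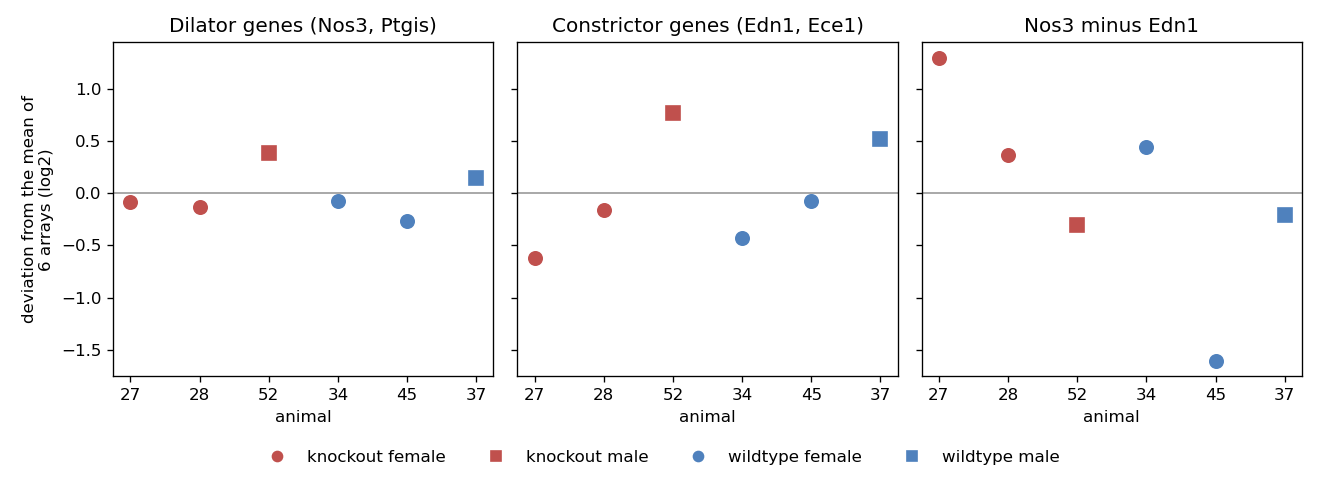
Deviation of each animal from the mean of the 6 arrays (log2 scale) for the mean of the dilator genes, the mean of the constrictor genes, and Nos3 minus Edn1. The dilator genes are Nos3 and Ptgis, and Ptgis was at background on every array. Red symbols are knockout and blue symbols wildtype; squares are males, which have the highest constrictor deviations, 0.77 and 0.52.

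Nos3 and Edn1 alone, a pair taken with its genotype differences of opposite sign known, gave a wider spread. Ece1, the other constrictor gene, also had signal above background on every array and differed in the same direction as Nos3, by 0.30 against 0.60. Nos3 minus Edn1 was 1.30, 0.37 and -0.30 in knockout animals against 0.44, -1.61 and -0.21 in wildtype animals. The extremes were both females, knockout 27, which had the lowest Edn1, and wildtype 45, which had the lowest Nos3. It averaged 0.45 ± 0.81 in the knockout and -0.46 ± 1.05 in the wildtype (SD, n = 3 each), and the groups overlapped. The difference of 0.91 came to 1.42 among females and -0.10 for the male pair.

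In the main setting, differences between the sexes were larger in absolute size than those between genotypes for 5 of the 6 genes, Ptgis being the exception. For Nos3 they were close, 0.64 against 0.60. Between the sexes 0 of 6 passed after adjustment, against 0.0259% of all genes. Edn1 was higher in the males by 1.02 (SE 0.45, limma adjusted p = 0.267), Ece1 by 0.91 (SE 0.31, adjusted p = 0.182) and Ptgs1 by 1.92 (SE 0.69, adjusted p = 0.197), with genotype in the model. These 3 had unadjusted p-values of 0.0487, 0.0159 and 0.0201, all higher in males, where 18.6% of all genes tested reached that level and 14.7% did so with the higher value in males. For Nos3, Ptgs2 and Ptgis the differences were 0.64, 1.02 and 0.19. Ece1, Ptgs1 and Nos3 had both males above all 4 females, which also held for 23.4% of all genes. Over all genes the median difference between males and females was 0.18, and the values above are to be read against it. After a further quantile normalization the differences of Edn1, Ece1 and Ptgs1 were 0.67, 0.61 and 1.48, with limma unadjusted p-values of 0.206, 0.0654 and 0.0812. In that setting Nos3 had 0.25 between the sexes against 0.49 between genotypes, and Ptgis 0.40 against -0.32.

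Spike-in signal moved with sex, being 8.82 and 8.91 in the males and 9.33 in only 1 female array of low signal, knockout 27. Against that female the males were higher by 1.86 for Edn1, 0.66 for Ece1 and 1.32 for Ptgs1, and lower by a difference of -0.60 for Ptgs2. With the spike-in mean as a covariate, which was added once the data had been seen, the male difference was 2.03 for Edn1, 0.83 for Ece1, -0.37 for Ptgs1 and -1.13 for Ptgs2. The male differences of Ptgs1 and Ptgs2 changed sign in that model (limma unadjusted p = 0.769 and 0.348). Those of Edn1 and Ece1 kept their sign without passing (limma adjusted p = 0.882 and 0.890). With only 1 female array near the males in spike-in signal, the model can hardly part sex from that signal and settles no sign. None of the 6 had an unadjusted p under 0.05 there, and 5.39% of all genes did. By the median of each list, markers of 4 other cell types were also lower in both males than in all 4 females. Their medians in knockout 52 and wildtype 37 were 7.12 and 5.24 against 7.62 to 8.56 in the females for 6 measured lymphatic markers, and 9.46 and 9.22 against 9.55 to 16.20 for 4 keratinocyte markers. They were 9.06 and 9.68 against 10.15 to 12.69 for 7 fibroblast markers, and 4.85 in both males against 6.01 to 8.29 for 7 leukocyte markers. Single markers did not all follow their list. Lcp1 of the leukocyte list was higher in both males (10.08 and 10.44) than in all 4 females. Col1a2 of the fibroblast list was higher in both males (11.03 and 10.80) than in knockout 27 and 28 (10.37 and 10.18). The pericyte and smooth muscle medians of 11.50 and 11.97 overlapped those of the females, 9.86 to 11.53. The part of these cells in the sex differences was not tested. An interaction of genotype and sex was called for 0 of the 6 genes by limma, with a smallest unadjusted p of 0.28; 1.03% of all genes had one under 0.05 and 0 were called.

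Around these genes, 67 of 77 other genes of the nitric oxide, endothelin, prostanoid and angiotensin pathways had a probeset and 52 were tested. By limma 0 were called higher and 0 lower in the knockout. At an unadjusted p under 0.05 there were 5, against 1.98% of all genes; 24 differences were above 0 and 28 below, with a median of -0.02. The list was drawn up with earlier results of these data known, so its counts are a description.

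**Figure D4:**
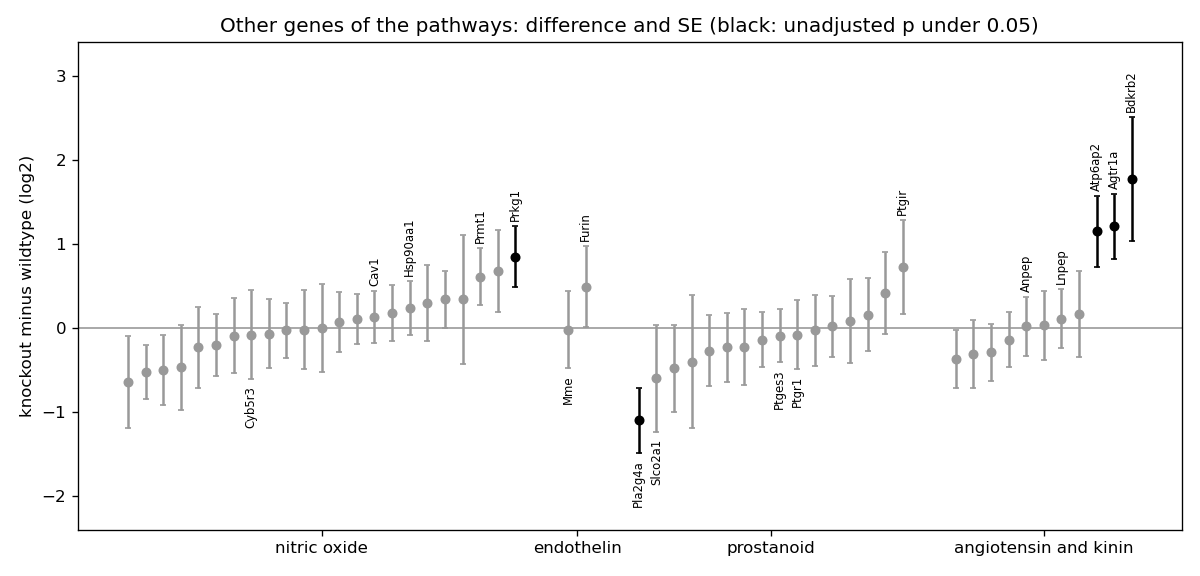
Knockout minus wildtype difference in log2 expression, with its SE from limma, for the 52 tested genes of the wider pathways, sorted within each arm. Black points are the 5 genes with an unadjusted p under 0.05, of which Bdkrb2 has the largest difference, 1.77; none passed after adjustment.

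In the nitric oxide arm 23 of 27 genes were tested, 11 with differences above 0 and 12 below, and 0 passed. The genes of highest signal were Hsp90aa1, a chaperone that assists nitric oxide synthase, Cav1, the caveolar protein that holds the synthase inactive, and Cyb5r3, a reductase that keeps the haem of endothelial globin and guanylate cyclase reduced. Their differences were 0.24, 0.13 and -0.08. Prkg1, the cyclic GMP-dependent kinase on which nitric oxide acts in smooth muscle and pericytes, was 6.37, 7.34 and 6.95 in knockout animals against 6.14, 5.73 and 6.25 in wildtype animals. All knockout values lay above all wildtype values, by 0.85 on average (SE 0.36, limma unadjusted p = 0.0426, adjusted p = 0.999). Prmt1, the methyltransferase whose products include precursors of inhibitors of nitric oxide synthase, was 11.07, 11.20 and 10.80 in knockout animals against 9.95, 10.51 and 10.77 in wildtype animals. The difference of 0.61 had a limma unadjusted p of 0.106 and was 0.38 without wildtype 34, and the lowest knockout value lay just above the highest wildtype value.

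The endothelin arm had 2 of 8 genes above the filter, and 0 passed. Furin, which makes the first cut of the endothelin precursor, was 9.09, 9.69 and 8.70 in knockout animals against 9.60, 7.88 and 8.53 in wildtype animals, a difference of 0.49. It was 0.10 without wildtype 45, 0.23 without knockout 28 and 0.96 without wildtype 34, and 0.84 with the keratinocyte covariate. Mme, the neprilysin that degrades endothelin, was near background at 3.11 to 4.89. The other precursors Edn2 and Edn3 had means of 3.05 and 3.21, below the filter.

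Among the prostanoid genes 16 of 24 were tested, with 5 differences above 0 and 11 below, and 0 passed. Pla2g4a, the phospholipase that frees arachidonic acid, was lower in every knockout array, 3.82, 3.54 and 3.30 against 4.51, 5.35 and 4.09 (limma unadjusted p = 0.0199, adjusted p = 0.999). All of these values were below the highest background probeset of their array. Ptgir, the prostacyclin receptor, was 8.0, 7.22 and 8.77 in knockout animals against 6.45, 6.95 and 8.39 in wildtype animals, a difference of 0.73 with overlapping groups. It was 0.33 without wildtype 34, 0.35 without knockout 52, 1.12 without knockout 28 and 1.30 without wildtype 37, and 0.26 with the spike-in block and 0.15 with the keratinocyte covariate. Slco2a1, the prostaglandin transporter, was lowest in knockout 28 at 8.48 and between 9.72 and 11.04 elsewhere. Ptges3, which is also a cochaperone, differed by -0.09 and the reductase Ptgr1 by -0.08.

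In the angiotensin and kinin arm 11 of 18 genes were tested, 7 with differences above 0 and 4 below, and 0 passed. Agtr1a, the constrictor receptor of angiotensin II, was 8.58, 8.92 and 8.52 in knockout animals against 7.73, 6.74 and 7.91 in wildtype animals. The knockout values lay above all wildtype values, with a difference of 1.21 (SE 0.39, limma unadjusted p = 0.0111, adjusted p = 0.999). Females alone gave 1.51 and males 0.61. Atp6ap2, the prorenin receptor, also did not overlap, at 9.88, 10.31 and 9.93 against 8.05, 9.05 and 9.58, a difference of 1.15 that was 0.72 without wildtype 34 (unadjusted p = 0.0229 by limma with all arrays). Bdkrb2, the bradykinin receptor through which kinins release nitric oxide, was picked out after its values were seen: 6.82, 6.13 and 7.17 against 4.19, 3.70 and 6.91. The 2 wildtype females were at background and the wildtype male was not, and the difference of 1.77 (limma unadjusted p = 0.038, adjusted p = 0.999) was 2.53 among females against 0.26 for the male pair. It was 1.16 without wildtype 45, 2.76 without wildtype 37, 1.14 with the spike-in block and 1.07 with the keratinocyte covariate. Anpep and Lnpep, peptidases of the angiotensin pathway, differed by 0.02 and 0.11.

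The differences of Agtr1a, Atp6ap2, Bdkrb2 and Prkg1 were 1.68, 1.76, 2.18 and 1.40 among arrays of high spike-in signal (knockout 28 against wildtype 34 and 45). They were 0.64, 0.33, 0.08 and 0.41 among those of low signal (knockout 27 and 52 against wildtype 37). In the females the 4 differences were 1.51, 1.54, 2.53 and 0.92, and for the male pair 0.61, 0.35, 0.26 and 0.70. Both males are arrays of low signal, so the spike-in split and sex can hardly be told apart here. Pericytes make Agtr1a, so their markers are given beside it. The median of the 8 pericyte and smooth muscle markers was 9.94 to 11.53 in the knockout and 9.86 to 11.97 in the wildtype, with 6 of the 8 above background on every array. Pdgfrb, a defining receptor of pericytes, was 13.62, 13.05 and 13.15 in knockout animals against 11.90, 11.44 and 13.10 in wildtype animals. Tagln, of the same list, was 8.99, 7.43 and 10.13 in knockout animals against 7.83, 9.20 and 10.85 in wildtype animals. Wildtype 45 had the lowest value of Agtr1a, and of Pdgfrb, Rgs5 (16.49), Des, Myh11 and Kcnj8. Acta2 was instead lowest in knockout 28 and wildtype 34 (11.35 in both), Tagln in knockout 28 and Cspg4 in wildtype 37 (4.06). The part of pericytes in the differences of Agtr1a and Prkg1 was not tested.

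The genes whose values followed each vasoactive gene most closely over the 6 arrays were found by Pearson's r, as a description over 11559 genes with 6 points each. With so few arrays many genes come close: 638 had r over 0.9 with Ece1, 351 with Ptgs1, 338 with Nos3, 175 with Ptgs2, 84 with Edn1 and 74 with Ptgis. All these points share the arrays, their depth of signal and the sex and spike-in splits above. Nos3 was followed most closely by Pam (r = 0.991), the enzyme that amidates peptide hormones, which was 13.81 in wildtype 45 and 14.90 to 15.78 elsewhere, and then by Ccdc146 (0.988). For Ece1 the closest were Vipr1 (0.997), a receptor of the dilator peptide VIP, and Klhl26 (0.995). Both were at background, with values of 4.28 to 4.94 and 4.23 to 5.28. Edn1 was followed by Mrpl40 (0.994) of the mitochondrial ribosome and Tnfrsf11a (0.989), the receptor RANK. Ptgs1 had Rtl8a and Bzw1 (both 0.999), and Ptgs2 had Exosc9 of the RNA exosome and Cbfa2t2 (both 0.988). Ptgis, itself at background, had Catsper2 (0.994), also at background with 3.91 to 4.93, and Fgd6 (0.988), at 4.51 to 5.65.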

How the data were processed

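The authors deposited expression values per probeset, read here as log2. Per the submitters' processing notes they used RMA and Affymetrix Expression Console; for versions, probeset library and build: not given in the sources used here. The log2 scale is inferred from RMA, for which the highest values are unusually high. Of 23188 probesets that are not controls, 15049 had 1 gene symbol; a gene with several kept the one with the highest mean. A gene was left out as dim when its mean lay below the 25th percentile of these probesets (3.51). Genotypes were compared with limma 3.58.1 (R 4.3.3) on all 6 arrays, with Benjamini-Hochberg adjustment over all genes tested, two-sided, at 0.05; sex was tested beside genotype. The script was tested on simulated data. Members and lists were chosen with earlier results of these data known. Named are all members, and per pathway arm the genes called, the 3 of highest mean and the 2 of smallest p; for each member the 2 genes of highest Pearson's r, passing over predicted names. Precision is limited by the number of arrays (median SE 0.387). Promoters are RefSeq sequences of GRCr8, found for 7 of 8 members; no protein sequences were used here. Alternatives changed the dim filter, scaling, design, weights, probeset summary and animals.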

Additional observations from a re-analysis of the deposited data

Results flagged for a closer look

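Ptgis differed between genotypes in opposite directions in the sexes: both knockout females (3.27 and 3.08) lay below both wildtype females (3.50 and 4.12), and the knockout male (3.79) lay above the wildtype male (3.57). The interaction was 0.85 (limma unadjusted p = 0.28, adjusted p = 0.999), with 1 male per genotype, and all 6 values were at background.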

How the results depend on the processing

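The 6 genes kept 0 calls between genotypes, between sexes and for the interaction under every alternative run, and the wider list kept 0 calls between genotypes. Of 98 differences of the 6 genes between genotypes under alternatives, 92 kept their direction, 6 reversed and 0 were called (smallest adjusted p = 0.596). The count of genes called between genotypes, 1 in the main setting, was 0 with no filter, 0 with the filter at the 50th percentile and 0 in females only, and 0 to 1 on leaving out each animal. Array weights gave 0.14 for Ptgs1, -0.13 for Anpep, 0.13 for Cyb5r3 and 0.11 for Ptgr1. Quantile normalization again gave -0.02 for Lnpep, -0.05 for Anpep and 0.00 for Mme. Mme was 0.02 after centring on medians, 0.22 with the spike-in block and 0.21 with the keratinocyte covariate; in females Anpep was -0.20 and Ptgr1 0.04. With the spike-in mean as a covariate, chosen after seeing the data, the male difference reversed for Ptgs1 (-0.37) and Ptgs2 (-1.13). Leaving out each animal gave -0.82 to 0.20 for Edn1, -1.11 to 0.56 for Ptgs1, -0.01 to 1.28 for Ptgs2, 0.03 to 0.64 for Ece1, 0.10 to 0.96 for Furin, 0.33 to 1.30 for Ptgir, -0.12 to 0.26 for Lnpep, -0.19 to 0.29 for Anpep, -0.49 to 0.40 for Mme, -0.51 to 0.49 for Cyb5r3, -0.19 to 0.10 for Ptges3, -1.05 to 0.16 for Slco2a1 and -0.29 to 0.24 for Ptgr1. The cause of these changes was not tested. The dilator minus constrictor balance ranged from -0.10 to 0.34, within 1 SD of 0.13. Leaving Ednrb out of the balance was not run, as Ednrb has no matched probeset, and Ptgis fell under the filter at the 50th percentile, in females only, without knockout 52 and without wildtype 45, which gave no value for it or the balance. The low signal of Ptgis and Pla2g4a limits what their differences show.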
